A study of Arabidopsis thaliana with 12 samples.

Results

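The miRNAs described here belong to Arabidopsis thaliana families known to regulate immune receptor and lectin transcripts. They are the entries of the families miR472, miR825, miR842 and miR846, whichever strand of the precursor they come from, chosen by family number. The rule gave 6 of the 240 miRNA entries in the series: ath-miR472-3p, ath-miR472-5p, ath-miR825, ath-miR842, ath-miR846-3p and ath-miR846-5p. All 6 were listed in each of the 12 libraries, miR825 at 0 in 1 of them. The suffixes 3p and 5p name the arm of the hairpin precursor that a mature miRNA comes from, and the entries miR825 and miR842 carry none.

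All plants were of the Col-0 ecotype. Roots of 9-day-old plants gave 8 libraries of small RNA that came down with GFP-tagged ARGONAUTE1 (AGO1) on GFP-Trap beads. The groups were ACL5 ktn1, ACL5 WT, EN7 ktn1 and EN7 WT, with 2 libraries each. The mutant carries the ktn1-20 allele of the katanin gene KTN1, whose product severs microtubules. The tagged AGO1 was a transgene in mutant and WT alike, driven by the ACL5 promoter, known from the vascular cylinder, or the EN7 promoter, known from the endodermis around it. The labels do not say how many transgenic lines were used. The other 4 libraries hold total small RNA from 14-day-old seedlings with no transgene listed, 2 of ktn1-20 and 2 of WT. Tissue, age, transgene and assay all differ between the AGO1 and the seedling libraries and cannot be told apart, and no test was made between these sets. A table of mature miRNAs measures neither KTN1 nor marker mRNAs, so the genotype and cell-layer labels were not checked. No precipitate from plants without tagged AGO1 was analysed here.

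AGO1 is the protein that most plant miRNAs act through. When a precursor hairpin is cut, one strand of the duplex is kept by AGO1 and the other is usually discarded. miR472 belongs to a family that cleaves transcripts of coiled-coil NLRs, the intracellular receptors that detect pathogen effectors, and its cleavage starts the making of secondary phased small RNAs. In Arabidopsis the 5p product of the miR825 precursor is known to act in the same way on NLRs with a TIR domain. The deposited entry miR825 does not say which arm it holds, so that role was not assigned to it. miR842 and miR846 target jacalin-related lectin genes, which encode carbohydrate-binding proteins, and they are made from a shared, alternatively spliced primary transcript that responds to abscisic acid. By RefSeq's gene list for assembly TAIR10.1, MIR842 (AT1G61224) and MIR846 (AT1G61226) are next to each other on chromosome 1 with no gene between them. MIR472 (AT1G12294, chromosome 1) lies inside the listed span of the protein-coding gene AT1G12290, and MIR825 (AT2G26211, chromosome 2) inside that of the transcribed pseudogene AT2G26220. That table holds no strand, and the sequences of the members were not used here.

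Values are RPM, reads per 1000000 reads of the library, so a miRNA that takes a larger share of the reads lowers the RPM of the others. The denominators behind them, inferred by taking each file's lowest nonzero value as 1 read, were 5804745 to 13004041 reads for AGO1 and 13769316 to 44332443 for seedlings. All read numbers and counting intervals given here rest on that inference. Listed miRNAs made up 25.1% to 59.5% of these reads in the AGO1 libraries and 1.68% to 2.45% in the seedling libraries. On the first principal component of 82 other AGO1-bound entries (56.6% of the variance), ACL5 ktn1 replicate 2 (1.11) and EN7 WT replicate 1 (-6.38) stood apart from their partner replicates, at -8.40 and 5.18. Results are therefore also given without these libraries where they matter. With 2 libraries per group, the SE of a log2 change had a median of 0.71 over the 86 entries tested in the AGO1 fit, which limits what could be called.

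miR846-3p dominated the set. It held 84.7% to 90.5% of the summed RPM of the 6 entries in the AGO1 libraries and 91.5% to 93.6% in the seedling libraries. In AGO1 it ranked between position 9 and position 12 of all entries. Levels were 2793 and 3787 RPM in ACL5 ktn1, 4235 and 3520 RPM in ACL5 WT, 4458 and 2242 RPM in EN7 ktn1 and 2772 and 6524 RPM in EN7 WT. The 4 AGO1 groups overlapped with their neighbours at every step of the order of means, which ran from EN7 WT through ACL5 WT and EN7 ktn1 to ACL5 ktn1. Both seedling groups lay far lower in RPM, at 194 and 154 RPM in ktn1 and 193 and 153 RPM in WT. Seedling ktn1 and WT libraries were interleaved, and miR846-3p kept positions 17 to 19 there.

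miR846-5p, from the opposite arm of the same hairpin, was the next most abundant in AGO1. It held 266 and 492 RPM in ACL5 ktn1, 301 and 272 RPM in ACL5 WT, 228 and 203 RPM in EN7 ktn1 and 252 and 357 RPM in EN7 WT. EN7 ktn1 was the lowest of the 4 and did not overlap with any of the others. Separations of a group from all the others, here and for both miR472 strands below, were not counted over all entries. In seedlings miR846-5p was at 3.11 and 2.83 RPM in ktn1 and 2.03 and 1.98 RPM in WT. The ktn1 seedlings were higher without overlap, as were 13.0% of 223 entries. They held 177 reads against 59 in WT, but 138 of the 177 came from replicate 1, the deepest library (44332443 reads). The ratio of pooled RPM was 1.52.

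miR472-3p, the strand that targets NLRs, was bound in both layers. It was at 125 and 125 RPM in ACL5 ktn1, 203 and 110 RPM in ACL5 WT, 191 and 150 RPM in EN7 ktn1 and 225 and 287 RPM in EN7 WT. EN7 WT stood above every other group, while EN7 ktn1 and both ACL5 groups overlapped in part. Seedlings held only 1.51 and 1.60 RPM in ktn1 and 0.944 and 2.24 RPM in WT, with WT on either side of ktn1.

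miR842 was bound at a lower level than its genomic neighbour. Its libraries held 9.67 and 34.7 RPM in ACL5 ktn1, 20.3 and 14.99 RPM in ACL5 WT, 41.7 and 40.2 RPM in EN7 ktn1 and 19.5 and 57.9 RPM in EN7 WT. The order of means was EN7 ktn1, EN7 WT, ACL5 ktn1 and ACL5 WT, and each overlapped with the next. Seedling libraries had 23 and 8 reads of miR842 in ktn1 (0.519 and 0.581 RPM) and 1 and 4 reads in WT (0.0726 and 0.256 RPM).

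miR472-5p and miR825 were scarce in AGO1, and neither reached the 10 RPM needed for the main test. miR472-5p was at 0.879 and 3.20 RPM in ACL5 ktn1, 5.33 and 5.17 RPM in ACL5 WT, 1.38 and 1.37 RPM in EN7 ktn1 and 1.53 and 2.45 RPM in EN7 WT. ACL5 WT was the highest of the 4 without overlap. In seedlings miR472-5p was at 2.75 and 2.32 RPM in ktn1 and 5.16 and 3.26 RPM in WT.

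miR825 in AGO1 separated the genotypes of ACL5. It had 47 and 73 reads in ACL5 ktn1 (5.17 and 7.79 RPM) and 2 and 0 reads in ACL5 WT. A count of 0 allows up to 0.517 RPM in that WT library. In EN7 it was at 4.54 and 1.08 RPM in ktn1 and 1.53 and 1.58 RPM in WT, so the ktn1 libraries lay on either side of WT. Seedlings held 5.44 and 3.92 RPM in ktn1 and 8.28 and 6.40 RPM in WT, and here ktn1 was lower without overlap.

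**Figure D1:**
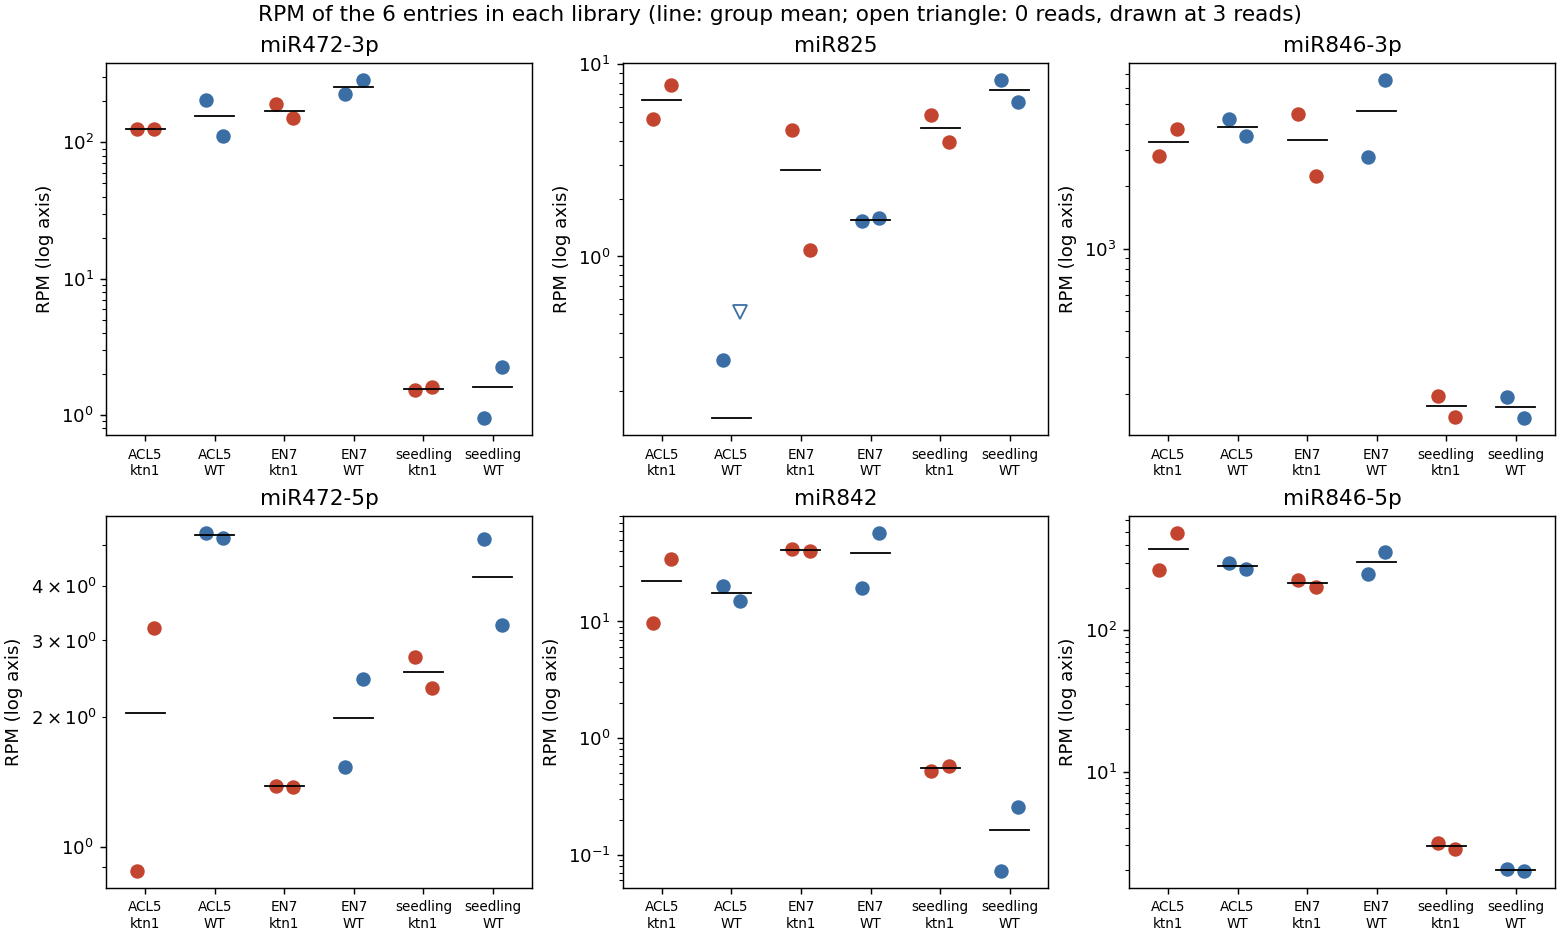
RPM (log axis) of each of the 6 entries by group, with 1 point per library (red ktn1, blue WT) and a line at the group mean. In RPM, miR472-3p, miR842 and both arms of miR846 are high in the AGO1 libraries and low in the seedling libraries, while miR472-5p and miR825 are not. As a share of the summed miRNA RPM, miR846-3p is near parity, with a ratio of AGO1 to seedlings of 1.31. The open triangle is the ACL5 WT library with 0 reads of miR825, drawn at the 0.517 RPM that 3 reads would give.

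Which arm the libraries held differed by precursor. Of the reads of both miR472 arms, the 3p arm took 99.3% and 97.5% in ACL5 ktn1, 97.4% and 95.5% in ACL5 WT, 99.3% and 99.1% in EN7 ktn1 and 99.3% and 99.2% in EN7 WT. In seedlings it took 35.4% (95% exact binomial interval 28.6% to 42.7%) and 40.7% (27.6% to 55.0%) in ktn1, and 15.5% (8.51% to 25.01%) and 40.7% (30.2% to 51.8%) in WT. Those seedling shares rest on 54 to 189 reads per library. The 3p arm was therefore the major one in 8 of 8 AGO1 libraries and the minor one by point value in 4 of 4 seedling libraries, with 2 of the 4 seedling intervals reaching past 50%. Within AGO1, both ACL5 WT libraries had a lower 3p share than both EN7 WT libraries.

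The miR846 arms stood the other way. The 3p share was 91.3% and 88.5% in ACL5 ktn1, 93.4% and 92.8% in ACL5 WT, 95.1% and 91.7% in EN7 ktn1 and 91.7% and 94.8% in EN7 WT. In seedlings it was 98.4% and 98.2% in ktn1 and 99.0% and 98.7% in WT. All 4 seedling libraries thus lay above all 8 AGO1 libraries, and the 5p strand made up a larger part of the pair in AGO1. The 2 ACL5 ktn1 shares were below both ACL5 WT shares, and in EN7 the genotypes overlapped. Separations of arm shares such as these, here and for miR472, were not counted over the other precursors.

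For comparison, 35 precursors had both arms listed under names of their own, and 14 of them had at least 20 reads of the pair in all 12 libraries. The same arm led in every library for 11 of the 14. The leading arm of the AGO1 libraries was the minor one in seedlings for 2, miR472 and miR840, and 1 was mixed. For miR840 the 3p share was 60.3% to 92.1% in AGO1 and 39.4% to 45.8% in seedlings. With a minimum of 100 reads, 12 precursors were left, and the number with another leading arm was 0. That minimum removed miR472 and miR840 themselves, so it could not show whether their leading arm still differed.

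**Figure D2:**
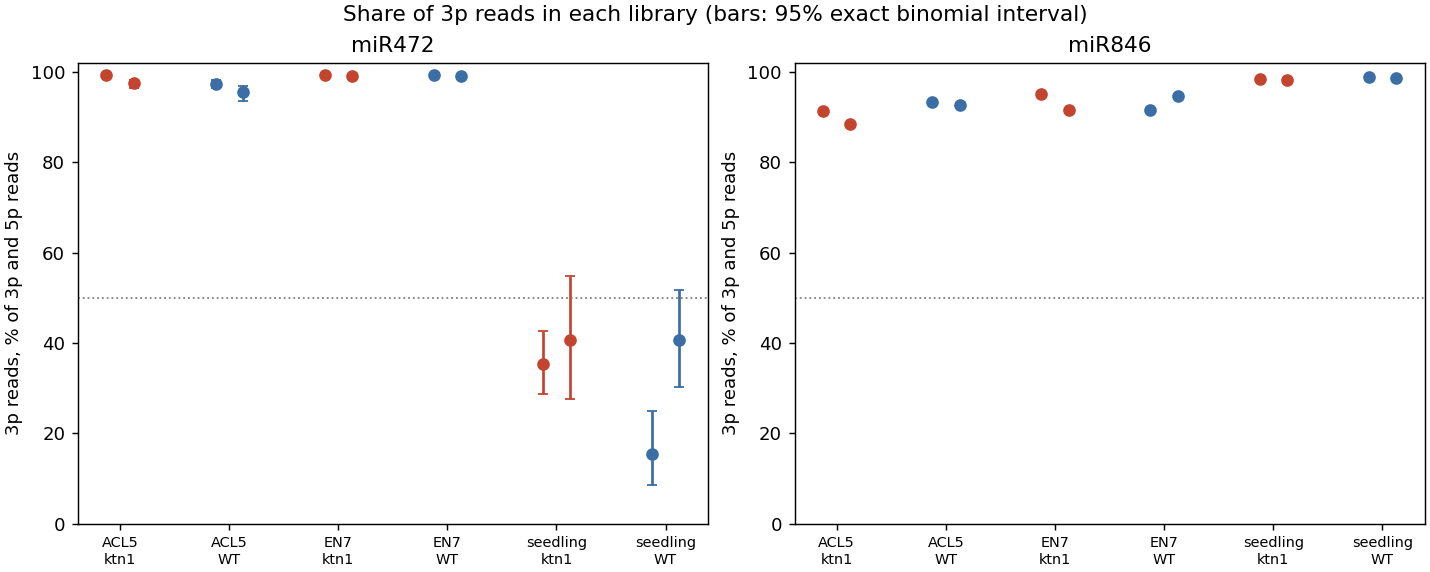
Share of 3p reads among the reads of both arms (% on the vertical axis) for miR472 (left) and miR846 (right), with 1 point per library, red ktn1 and blue WT, and 95% exact binomial intervals. miR472 is at 95.5% to 99.3% in AGO1 and 15.5% to 40.7% in seedlings, on either side of the dotted line at 50%, while miR846 stays above it throughout.

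Because listed miRNAs fill a different part of the reads in the 2 assays, the members were also expressed as a share of the summed miRNA RPM. The ratio of the mean share in the AGO1 libraries to that in seedlings was computed for the 134 entries with at least 20 reads in each set. Its median over these entries was 0.231. The mean share of miR846-5p was 0.0875% in AGO1 and 0.0122% in seedlings, a ratio of 7.17 and position 2 of 134 from the highest. miR472-3p had a ratio of 6.49 (position 4) and miR842 one of 4.29 (position 8). The miR842 value rests on 31 reads in ktn1 seedlings and 5 in WT seedlings. miR846-3p was near parity, at 1.09% in AGO1 and 0.829% in seedlings, with a ratio of 1.31 and position 21.

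The remaining entries lay in the lower part of the order. miR472-5p made up 0.000848% of the miRNA RPM in AGO1 and 0.0157% in seedlings, a ratio of 0.0539 at position 104. miR825 made up 0.00075% in AGO1 and 0.0281% in seedlings, a ratio of 0.0267 at position 116. The strands of the miR472 duplex thus stood far apart in this order. So did those of some other duplexes, such as miR396b (5p at position 51, 3p at 108), while those of miR408 were close (3p at 55, 5p at 53). The distances were not summarized over all duplexes. These ratios are descriptions across unlike tissues, ages and assays, with no test.

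**Figure D3:**
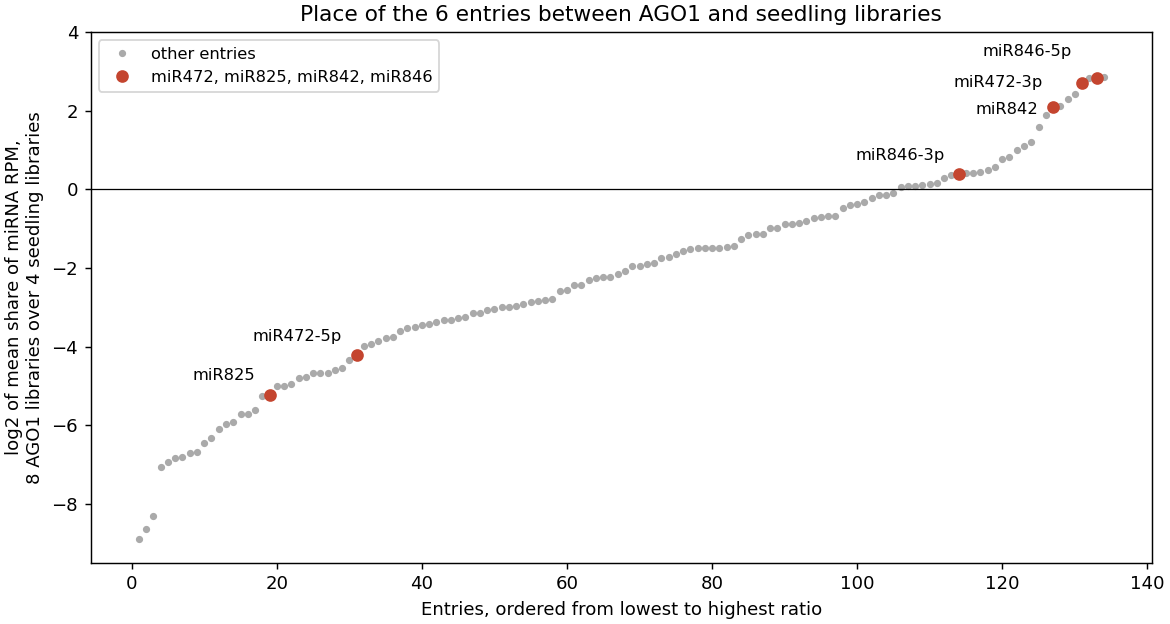
Each point is 1 of 134 miRNA entries, ordered along the horizontal axis from the lowest to the highest ratio; the vertical axis is the log2 ratio of its mean share of miRNA RPM in 8 AGO1 libraries to that in 4 seedling libraries. miR846-5p (2.84), miR472-3p (2.70) and miR842 (2.10) lie at the top, miR846-3p (0.39) near 0, and miR472-5p (-4.21) and miR825 (-5.23) in the lower part.

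The first design question is how ktn1 alters AGO1-bound miRNAs in each layer. In ACL5, 0 of the 4 members tested passed (limma, adjusted p under 0.05), where 4.65% of all 86 entries did. The log2 difference was -0.26 (SE 0.55) for miR472-3p, 0.081 (SE 0.78) for miR842, -0.25 (SE 0.55) for miR846-3p and 0.34 (SE 0.55) for miR846-5p, each with a limma adjusted p of 0.856 or more. Their median of -0.083 stood beside -0.0019 over all entries. At an unadjusted p under 0.05 the number was also 0 of 4, where 15 of all 86 entries were. Groups overlapped for all 4 of these members. Without ACL5 ktn1 replicate 2, the differences of miR842 and miR846-5p were -0.79 and -0.11, and without replicate 1 they were 0.95 and 0.78.

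miR825 did differ in ACL5 once low entries were admitted. With a filter of 1 RPM in 2 libraries, its log2 change was 2.70 (SE 0.57, adjusted p = 0.0315, limma over 145 entries, of which 4.14% passed). With no filter the adjusted p was 0.0470, among 197 entries of which 3.55% passed. Pooled over replicates, the RPM ratio of ktn1 to WT was 41.4, with a counting interval of 11.2 to 346 because WT held 2 reads. Both ktn1 libraries were above both WT libraries. The call was lost without a mean-variance trend (adjusted p = 0.0701), after rescaling to equal sums of miRNAs outside miR165 and miR166 (0.0511), and when any 1 of the 4 ACL5 libraries was left out (0.0840 to 0.275). Without both libraries that stand apart it was 0.108. The log2 change was between 2.44 and 2.95 in those fits without 1 ACL5 library. Over all 18 alternatives at the 1 RPM filter, pseudocounts and rescalings included, it ran from 1.15 to 3.45.

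The partner strand miR472-5p was lower in both ktn1 libraries than in both WT libraries of ACL5, at 38 reads against 67. Its log2 change of -1.15 (SE 0.53) did not pass at the 1 RPM filter (limma adjusted p = 0.300). Without overlap between genotypes, 1 of 6 members was higher and 1 of 6 lower in ACL5 ktn1, where 25.9% and 23.8% of all 185 entries were.

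In EN7, again 0 of 4 members passed, at adjusted or unadjusted p under 0.05. Of all 86 entries, 6.98% passed after adjustment and 15 had an unadjusted p under 0.05. The log2 difference was -0.58 for miR472-3p (SE 0.55, limma adjusted p = 0.623), -0.43 for miR846-3p (SE 0.55) and -0.48 for miR846-5p (SE 0.55). These lie close to the median of all 86 entries, -0.47, and with each library centred on its median miRNA they were 0.12, 0.27 and 0.22. For miR842 it was 0.27 (SE 0.78). In RPM as deposited, miR472-3p, miR472-5p and miR846-5p were lower in both ktn1 libraries than in both WT libraries, 3 of 6 members where 23.9% of 180 entries were, and 0 of 6 were higher, where 10.6% were. The ktn1 to WT ratio of mean RPM was 0.667 for miR472-3p, 0.694 for miR472-5p and 0.707 for miR846-5p. With no filter, the log2 difference was 0.41 (SE 0.56) for miR825 and -0.31 (SE 0.54) for miR472-5p, and neither passed (limma adjusted p of 0.917 or more), where 2.54% of 197 entries did.

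An interaction term, the ktn1 change in ACL5 minus that in EN7, compared the effect of the mutation across the layers. None of the 4 members passed (0 also at an unadjusted p under 0.05), where 2.33% of all entries did. An unadjusted p under 0.05 was reached by 7 of the 86 entries. The interaction furthest from 0 among them was that of miR846-5p, at 0.82 (SE 0.78, limma adjusted p = 0.970). For miR825 at the 1 RPM filter it was 2.29 (SE 0.80), with an unadjusted p of 0.0207 and a limma adjusted p of 0.429, so the difference between layers did not pass the test. At that filter 1.38% of 145 entries passed, and with no filter, where 1.02% of 197 passed, its adjusted p was 0.332.

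The second question is how the layers differ. In WT, 0 of 4 members differed between ACL5 and EN7 (limma adjusted or unadjusted p under 0.05). Of all 86 entries, 3.49% passed after adjustment and 16 had an unadjusted p under 0.05. miR842 differed by -0.91 (SE 0.78) and miR472-3p by -0.76 (SE 0.55), in a comparison whose median over all entries was 0.39. Single libraries moved both: miR842 was at -1.67 without EN7 WT replicate 1 and -0.15 without EN7 WT replicate 2, and miR472-3p at -1.19 without ACL5 WT replicate 1 and -0.32 without ACL5 WT replicate 2. miR472-3p was lower in both ACL5 WT libraries than in both EN7 WT libraries, a mean ratio of 0.613. Its partner strand miR472-5p stood the other way, at a mean ratio of 2.64 with no overlap. miR825 was lower in ACL5 WT on 2 reads against 23. At the 1 RPM filter, where 2.76% of 145 entries passed, the log2 difference was 1.08 (SE 0.53) for miR472-5p and -1.17 (SE 0.57) for miR825, each with a limma adjusted p of 0.370. Without overlap, 1 of 6 members was higher and 2 of 6 were lower in ACL5, where 26.6% and 20.8% of 192 entries were. The difference was -0.14 for miR846-3p and -0.068 for miR846-5p, with an SE of 0.55 each.

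In ktn1, 16.3% of all entries differed between the layers and 0 of the 4 members did. At an unadjusted p under 0.05 it was also 0 of 4 members, where 29 of all 86 entries were. miR842 differed by -1.10 (SE 0.78, limma adjusted p = 0.339) and miR846-5p by 0.75 (SE 0.55, adjusted p = 0.351), around a median of 0.91 over all entries. Either ACL5 ktn1 library moved both values: miR842 was at -0.23 without replicate 1 and -1.97 without replicate 2 (adjusted p of 0.863 and 0.140), and miR846-5p at 1.19 and 0.31. Without both libraries that stand apart, miR842 was at -1.97 (SE 0.55) with a limma adjusted p of 0.0305, in a fit where 36 of 83 entries passed (43.4%), against 14 of 86 with all libraries. The lone ACL5 ktn1 and EN7 WT libraries are then assumed to vary like ACL5 WT and EN7 ktn1, on which the spread rests. Between replicates of these the median absolute log2 difference was 0.38 and 0.59. It was 0.88 in ACL5 ktn1 and 0.93 in EN7 WT with all libraries. The libraries left out were picked on the first principal component, where EN7 ktn1 lay at 11.8 and 15.6. ACL5 ktn1 replicate 2 (1.11) was nearer to EN7 ktn1 than its partner (-8.40), so leaving it out can widen this layer difference. Neither the miR842 value nor its SE is therefore independent of that choice. miR472-3p and miR842 were lower and miR825 and miR846-5p higher in both ACL5 libraries than in both EN7 libraries, so 2 of 6 members fell on each side, where 16.7% of 192 entries were lower and 38.0% higher. The mean RPM of miR825 was 2.31 times as high in ACL5 ktn1 as in EN7 ktn1, a log2 difference of 1.12 (SE 0.56) with a limma adjusted p of 0.305 under no filter, where 5.58% of 197 entries passed.

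**Figure D4:**
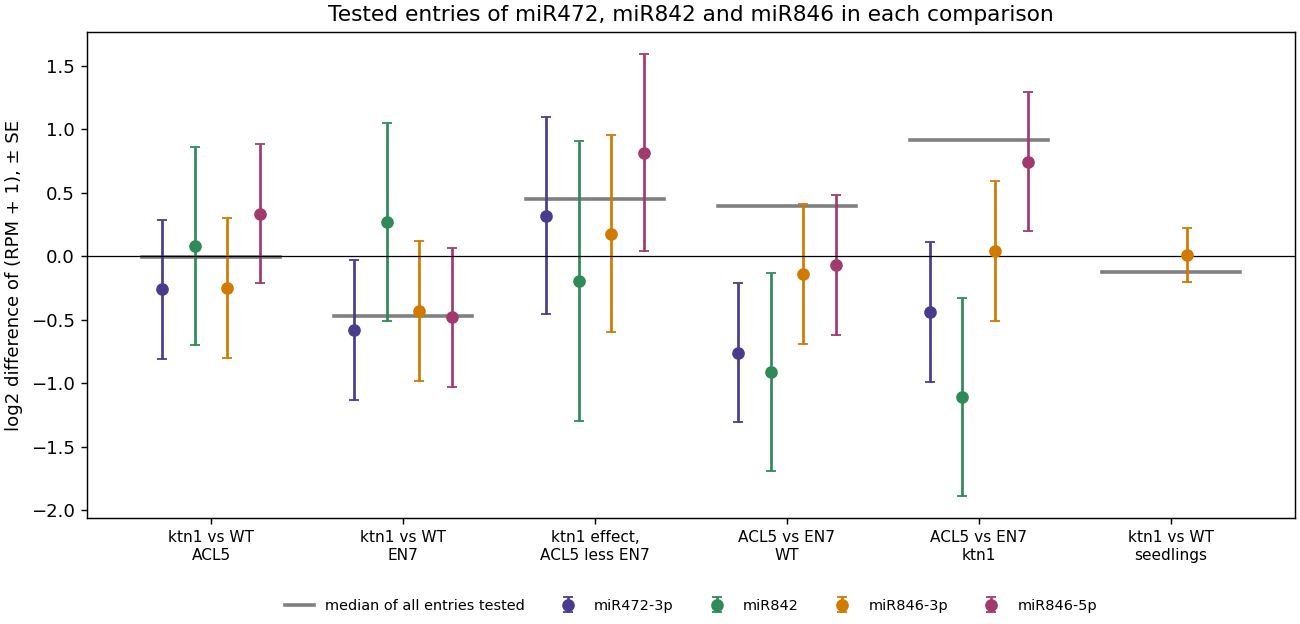
Log2 difference of RPM + 1 (vertical axis, ± SE) of the 4 members tested in the AGO1 libraries, in 6 comparisons along the horizontal axis; in seedlings only miR846-3p was tested. Grey bars give the median of all entries tested, and none of the points passed the adjusted threshold; all 4 members lie below that median in both layer comparisons.

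In seedlings only miR846-3p reached the level needed for a test. Its log2 difference was 0.012 (SE 0.22, limma adjusted p = 0.957), so 0 of 1 member passed, where 1.61% of 62 entries did; its unadjusted p was also 0.957. The other 5 members were lower than 10 RPM. Of all 6, miR842 and miR846-5p were higher and miR472-5p and miR825 lower in both ktn1 libraries than in both WT libraries, where 13.0% of 223 entries were higher and 28.3% lower. The ratio of ktn1 to WT pooled RPM was 1.52 for miR846-5p (counting interval 1.12 to 2.07), 0.639 for miR472-5p (0.5004 to 0.817) and 0.698 for miR825 (0.583 to 0.836). For miR842 it was 3.14 (1.21 to 10.3), on 31 reads against 5. None of these passed with no filter on low values (limma adjusted p of 0.156 for miR842 and 0.456 or more for the others), where 1.79% of 223 entries passed. The unadjusted limma p was 0.00942 for miR842 and 0.0695 or more for the others. How many of the 223 entries had one under 0.05 was not counted. In the main seedling fit the median total degrees of freedom was 124, so its SEs rest on a spread pooled over entries more than on each entry's own libraries.

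The neighbours MIR842 and MIR846 were then set side by side. The ratio of miR846-3p to miR842 was 289 and 109 in ACL5 ktn1, 209 and 235 in ACL5 WT, 107 and 55.7 in EN7 ktn1 and 142 and 113 in EN7 WT. Both ACL5 WT libraries were above both EN7 WT libraries, and both ACL5 ktn1 libraries above both EN7 ktn1 libraries, though the nearest pair, at 109 and 107, was close. Separations of such ratios were not counted over other pairs of entries, so these are not shown to be particular to the neighbours. Across the 8 AGO1 libraries, log2 levels of miR842 and miR846-3p correlated at 0.48 (Pearson) and 0.55 (Spearman), which put miR846-3p at position 20 among 85 entries by likeness to miR842. The arms of miR846 correlated with each other at 0.51 (Pearson). These libraries share groups, denominators and the split described above, so the correlations are descriptions.

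By the same measure, the entries most like miR472-3p were miR171b-3p/miR171c-3p (Pearson 0.85), miR822-3p (0.85) and miR8182 (0.84). Those most like miR842 were miR167a-5p/miR167b (0.93), miR319c (0.92) and miR173-5p (0.91). For miR846-3p they were miR160a-5p/miR160b/miR160c-5p (0.79), miR5651 (0.76) and miR319a/miR319b (0.60). For miR846-5p they were miR780.2 (0.73), miR171a-5p/miR170-5p (0.69) and miR319a/miR319b (0.68). miR319a/miR319b was thus shared by the arms of miR846, and no other entry was named more than once.

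Other miRNAs with described roles in Arabidopsis immunity (miR393, miR398, miR400, miR773, miR844, miR858 and miR863) had 15 entries, of which 4 were tested in AGO1. Of these, 0 passed in any AGO1 comparison (limma), while 1 entry of miR398 in ACL5 and 2 in EN7 had an unadjusted p under 0.05 for ktn1 against WT. Over all 86 entries, 15 had such a p in ACL5 and 15 in EN7. The median log2 change of the 4 tested entries was 2.32 in ACL5 and 1.86 in EN7 for ktn1 against WT, beside -0.0019 and -0.47 over all entries. The 2 miR398 entries are among these 4, so the medians lean on 1 family and do not describe the list as a whole. Other starters of phased small RNAs (miR161, miR173, miR390, miR393 and miR828) had 11 entries, 5 of them tested. For these too 0 passed in the AGO1 comparisons, with 1 entry (miR161.1 in EN7) at an unadjusted p under 0.05, and the ktn1 medians were -0.81 in ACL5 and -0.25 in EN7. In seedlings 5 entries of each list were tested and 0 passed (1 at an unadjusted p under 0.05, miR393b-3p, which is in both lists), with medians of -0.068 and -0.27 beside -0.13 over all 62 entries. Of those 62, 6 had an unadjusted p under 0.05.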

How the data were processed

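Small RNA libraries were made with a NEBNext kit, per the labels' protocols. The submitters' processing notes name cutadapt, Bowtie and the TAIR10 build. The miRNA annotation, length filter and mismatch setting are not given in the sources used here. The authors deposited 1 file per library with RPM (reads per 1000000) for each mature miRNA entry; names with the same sequence share an entry. Which reads form the denominator is not stated. Every nonzero value was a whole multiple of its file's lowest one, within 0.01 reads. That lowest value was taken as 1 read. Read numbers, denominators, arm shares, pooled ratios, read minimums, intervals and floors all rest on this inference. The files held too few low values for a check of it to pass, so no count test was run.

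Entries a file does not list were set to 0. Values were analysed as log2(RPM + 1), which understates changes of low entries. A test required 10 RPM in 2 or more of the fitted libraries and was run with limma 3.58.1 in R 4.3.3 (1 mean per group, eBayes with a mean-variance trend, two-sided). P-values were adjusted by Benjamini-Hochberg over all entries tested, with a threshold of 0.05. The 8 AGO1 libraries shared 1 fit, and the 4 seedling libraries another. Precursors with 20 or more reads of the pair in all libraries formed the background of arm shares. Intervals are 95% exact binomial (Clopper-Pearson), and a count of 0 allows up to 3 reads; both describe counting error alone, because PCR copies are not separate molecules.

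Every entry of the 4 families was named, and for each tested one the 3 entries most like it. The members, the lists and the rules were chosen with earlier results of these data known. Alternatives were pseudocounts, filters, rescalings, a fit without a trend, fits of the compared groups alone, a replicate block and leaving out libraries. The crossed block, the fit without 2 libraries together and the 1 RPM filter combined with other settings were added after seeing the data. The labels do not say that a replicate number marks a shared batch, and nothing says that replicates came from separate plantings, so p-values measure only the spread between these libraries. SciPy 1.17.1, pandas 2.3.3 and matplotlib 3.10.9 were used for the rest.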

Additional observations from a re-analysis of the deposited data

Results flagged for a closer look

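In miR825, all ktn1 libraries lay above WT in ACL5 roots and below WT in seedlings, a gap of 3.26 between the log2(RPM + 1) changes (2.70 and -0.56). The difference was not tested, since the sets differ in tissue, age and assay.

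For miR846-5p, every ktn1 library lay below WT in EN7 roots and above WT in seedlings, a gap of -0.88 between the changes (-0.48 and 0.40), which was not tested either. The EN7 value became positive when libraries were centred on the median miRNA.

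The layer difference of miR825 also pointed in opposite directions by genotype: ACL5 was above EN7 in ktn1 and below it in WT, without overlap, a gap of 2.29 (1.12 and -1.17). As an interaction at the 1 RPM filter this had a limma adjusted p of 0.429, in a range of 0.164 to 0.987 over its alternatives.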

How the results depend on the processing

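No member was called in the main comparisons; the exceptions under other settings are 1 in ACL5 ktn1 against WT (miR825, with no filter or the 1 RPM filter) and 1 in ACL5 against EN7 in ktn1 (miR842, without both libraries that stand apart, where 43.4% of all entries passed). None of the signs that turned belonged to a called value, and the cause was not tested.

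For ktn1 against WT in ACL5, equal sums of listed miRNAs gave -0.16 for miR842. Equal sums outside miR165 and miR166 gave -0.34 for miR842 and -0.11 for miR846-5p. Median centring gave 0.17 for miR472-3p and 0.18 for miR846-3p. Without both libraries that stand apart, miR842 was at -0.79 and miR846-5p at -0.11. In EN7, miR842 was at -0.44 with equal sums and -0.49 without both libraries, and centring gave 0.12, 0.27 and 0.22 for miR472-3p, miR846-3p and miR846-5p. The interaction was 0.28 for miR842 with equal sums, -0.10 for miR472-3p and -0.25 for miR846-3p with equal sums outside miR165 and miR166, and -0.092 for miR846-3p with centring. Between layers in WT, equal sums gave 0.18 for miR846-3p and 0.25 for miR846-5p. Between layers in ktn1, equal sums gave 0.36 for miR472-3p, and miR846-3p was at -0.46, -0.52 and -0.18 with equal sums outside miR165 and miR166, with centring and without both libraries.

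Leaving out 1 library moved ktn1 against WT in ACL5 from -0.70 to 0.18 (miR472-3p), -0.79 to 0.95 (miR842), -0.47 to -0.028 (miR846-3p) and -0.11 to 0.78 (miR846-5p); in EN7 from -0.76 to -0.41 (miR472-3p), -0.49 to 1.04 (miR842), -1.05 to 0.19 (miR846-3p) and -0.73 to -0.23 (miR846-5p); and in seedlings from -0.16 to 0.18 (miR846-3p). The interaction ranged from -0.12 to 0.76 (miR472-3p), -1.06 to 0.68 (miR842), -0.44 to 0.80 (miR846-3p) and 0.37 to 1.26 (miR846-5p). The layers differed by -1.19 to -0.32 (miR472-3p), -1.67 to -0.15 (miR842), -0.76 to 0.48 (miR846-3p) and -0.32 to 0.18 (miR846-5p) in WT, and by -0.61 to -0.26 (miR472-3p), -1.97 to -0.23 (miR842), -0.45 to 0.54 (miR846-3p) and 0.31 to 1.19 (miR846-5p) in ktn1. At the 1 RPM filter, ktn1 against WT in ACL5 ranged from 2.44 to 2.95 for miR825 and -1.73 to -0.57 for miR472-5p. With the other alternatives included, miR825 ranged from 1.15 to 3.45 at that filter.

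Over all entries, the number called for ktn1 against WT in ACL5 was 4, and 7 with no filter, with equal sums outside miR165 and miR166 or with only the compared groups, 2 with centring or without a trend, and 9 without both libraries. The interaction called 2, but 0 without a trend and 6 without both libraries. The layers in WT gave 3, with 0 without a trend or with only the compared groups and 18 without both libraries. The layers in ktn1 gave 14, with 33 at equal sums, 8 with centring and 36 without both libraries. Seedlings gave 1, with 4 at no filter, 2 with centring and 0 at a pseudocount of 5 RPM, with either equal-sum scaling, without a trend or with the replicate block. Without 1 library the counts were 1 to 9 in ACL5, 5 to 19 in EN7, 2 to 4 for the interaction, 2 to 4 for the layers in WT, 2 to 21 for the layers in ktn1 and 0 to 10 in seedlings. With 1 library left in a group, it is assumed to vary like the others.

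Replicate numbers paired no samples by label, and same-numbered libraries deviated together at -0.48 in ACL5, 0.42 in EN7 and 0.18 in seedlings. The replicate block called 4 entries in ACL5, 8 in EN7 and 16 between layers in ktn1, and the crossed ACL5 numbers 4, 5 and 10. A minimum of 100 reads left 0 precursors with another leading arm because it removed miR472 and miR840, so it is no check on them. Depth limits miR825, miR472-5p and the seedling values of miR842, which rest on few reads.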
